A study of Mus musculus with 24 samples.

Results

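Antioxidant defence in the gastrocnemius muscle was followed through 10 genes, namely Sod1, Sod2, Cat, Gpx1, Gpx4, Prdx3, Txnrd1, Gclc, Nqo1 and Hmox1. Their probes were taken by name and not by a measured value. Every array probe was taken whose gene name in the scanner files, or whose current symbol through its accession, was 1 of the 10. The 10 genes themselves had been chosen with earlier results of these data known. They are 10 of 20866 genes with a symbol on the array, and all 10 were among the 10635 genes that were bright enough to be compared. Each of 24 arrays held the muscle RNA of 1 adult male C57BL/6N mouse, 8 mice per diet. All mice had received for 8 weeks, from the age of 3 months, a high-fat diet with about 35% lipids, mainly corn oil, either alone (cHF), with an n-3 LC-PUFA concentrate (46% of it DHA and 14% EPA) in place of 15% of the lipids (cHF+F), or with 10 mg of the thiazolidinedione rosiglitazone per kg (cHF+ROSI). At the end, food was withdrawn from every animal for 10 h of the light phase and Chow was given overnight, so the levels are those of a re-fed muscle, and no array held muscle of a mouse kept on Chow. The mice were housed in pairs according to the study's methods, and which animals shared a cage is not given in the sources used here. The p-values therefore measure the spread between these animals and arrays.

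Muscle fibres form superoxide and hydrogen peroxide in the mitochondrial respiratory chain and at membrane oxidases. Superoxide dismutases turn superoxide into hydrogen peroxide, and catalase, the glutathione peroxidases and the peroxiredoxins then remove the peroxide. The peroxidases draw their reducing power from glutathione and thioredoxin, which are kept reduced with NADPH. The transcription factor NRF2 is known to raise the expression of several of these genes under oxidative stress through antioxidant response elements, and catalase is also a known target of PPAR nuclear receptors in some tissues. Long-chain fatty acids and thiazolidinediones are both known ligands of PPARs.

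Of the 12 probes for these genes, 10 were bright enough, 1 for each gene, and none was saturated or carried a quality flag on any array. Probe positions are given on mouse build mm8, as in the scanner files. The probe for Sod1 lies at chr16:90115111-90115170, that for Sod2 at chr17:12858140-12858199, that for Cat at chr2:103255342-103255401 and that for Gpx1 at chr9:108198037-108198096. Gpx4 was read at chr10:79459075-79459226, positions that span 152 bases of the genome against 60 for the other probes, and Prdx3 at chr19:60918908-60918967. The span is taken from the genome positions, and the length of the probe itself was not read. The probe for Txnrd1 lies at chr10:82327284-82327343, that for Gclc at chr9:77579173-77579232, that for Nqo1 at chr8:110277669-110277728 and that for Hmox1 at chr8:77996380-77996439. The exon or UTR that each probe reads was not annotated here, because no annotation of that build was given. A further pair of probes named Sod1, at chr16:90112795-90112854 and chr16:90111887-90111946, had a mean Cy3 signal under the minimum of 2 times the background and gave no level. The mean Cy5 signal of the probes used ranged from 11.0 times the background for Hmox1 to 802 times for Sod1, with Gclc (12.1 times) the next lowest.

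Promoter windows were available for 8 of the genes, with 13 windows in all, and none for Hmox1 and Gclc. The windows are those of RefSeq on GRCm38.p6, which is another build than that of the probes, and each reaches from 250 bases before to 50 bases after an annotated start. Those of Sod1 and Sod2 are shown because their levels varied together across the arrays, and that of Cat because it had the smallest p-value of the 10 genes. Capitals mark 4 motifs searched on both strands: the antioxidant response element core (TGACNNNGC), the GC box (GGGCGG), the CCAAT box and the nuclear receptor half-site (AGGTCA). The lines give the strand of the gene, from 5′ to 3′, at chr2:103485104-103485403 for Cat on the minus strand, at chr16:90220512-90220811 for Sod1 and at chr17:13007589-13007888 for Sod2, both on the plus strand.
Cat: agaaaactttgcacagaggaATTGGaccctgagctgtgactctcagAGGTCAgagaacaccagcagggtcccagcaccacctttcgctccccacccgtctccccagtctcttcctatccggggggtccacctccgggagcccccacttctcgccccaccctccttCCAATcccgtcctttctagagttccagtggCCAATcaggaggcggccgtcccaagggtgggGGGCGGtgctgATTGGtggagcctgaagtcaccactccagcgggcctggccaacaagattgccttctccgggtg
Sod1: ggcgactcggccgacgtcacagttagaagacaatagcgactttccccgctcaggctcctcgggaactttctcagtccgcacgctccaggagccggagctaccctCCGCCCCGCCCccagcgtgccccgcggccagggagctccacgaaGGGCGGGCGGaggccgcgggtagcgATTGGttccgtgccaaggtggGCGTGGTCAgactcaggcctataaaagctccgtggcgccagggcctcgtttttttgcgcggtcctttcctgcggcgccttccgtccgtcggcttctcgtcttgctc
Sod2: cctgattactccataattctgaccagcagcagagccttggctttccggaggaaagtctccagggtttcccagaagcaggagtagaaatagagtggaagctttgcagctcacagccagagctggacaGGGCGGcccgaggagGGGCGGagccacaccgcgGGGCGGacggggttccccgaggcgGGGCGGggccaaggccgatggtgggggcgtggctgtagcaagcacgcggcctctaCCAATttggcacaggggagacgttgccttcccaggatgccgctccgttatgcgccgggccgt

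The windows differ in these letters. That of Cat holds 4 CCAAT boxes, 1 GC box and 1 half-site, at positions -204 to -199 from the start, those of Sod1 and Sod2 hold 4 GC boxes and 1 CCAAT box each, and that of Sod1 alone of the 3 holds the response element core, at -56 to -48 on the opposite strand. Of all 13 windows, 10 hold a GC box and 7 a CCAAT box, against 35.7% and 37.4% of the 32841 windows of the reference table. The 13 windows are not independent, since Gpx4 and Txnrd1 have more than 1 each. The Gpx4 windows at chr10:80053315-80053614 and chr10:80053409-80053708 overlap, and the same GC and CCAAT boxes count in both. The response element core was found in 2 of the 13, in Sod1 and in 1 window of Txnrd1, against 12.4% of all windows, and the half-site in 3 of the 13, against 16.3%. The full PPAR element, a direct repeat of the half-site with 1 base between (DR1), which contains the half-site, was in 0 of the 13 and in 0.0396% of all windows. These matches describe letters in a window and not binding.

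Expression was read as the log2 ratio of an animal's signal (Cy5) over that of a pool of RNA common to all arrays (Cy3), so 0 is the level of the pool. The labels describe the pool in ways that do not match, one of which adds RNA of mice given 100 mg rosiglitazone per kg diet that were not on arrays here. The study's supporting text also places that group in the pool and states that the Cy3-labelled samples were mixed in equimolar amounts. The labels alone leave the make-up of the level called 0 unsettled. Each of 8 slides carried 1 array of each diet at a fixed place, so diet and place on the slide cannot be told apart, and the slide number is the replicate number. Between 30.4% and 55.1% of the spots were well above background in Cy5 on slides 1 to 3 and between 50.3% and 61.3% on the others, except for 91.1% on array 4 of cHF+ROSI. Loess normalization left the brightest 2% of probes off 0 on array 3 of cHF+ROSI, with a median log2 ratio of -0.45, and less so on array 2 of cHF+ROSI (-0.19). The levels of the bright probes of Sod1, Sod2 and Gpx4 on array 3 are therefore also given under a narrower normalization. All 5 markers of skeletal muscle (Acta1, Ckm, Myh4, Mb and Tnnt3) were measured. In RNA of whole muscle, fewer cells of a type and less RNA per cell cannot be told apart.

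None of the 10 genes differed between any pair of diets at an adjusted p under 0.05. By limma with Benjamini-Hochberg adjustment over 15958 probes, 0 members were called in each of the 3 comparisons, beside 0% of all probes, and the smallest adjusted p of a member was 0.558 in cHF+F and 0.996 in cHF+ROSI, each versus cHF, and 0.740 between the interventions. At an unadjusted p under 0.05 there was 1 member in each, Cat, Sod1 and again Cat, beside 6.86%, 4.7% and 6.67% of all probes, and the methods' t-test gave 1, 0 and 0 members. With the slide as a block 0 members were called, beside 0.0376%, 0% and 0% of all probes, and 2, 3 and 2 had an unadjusted p under 0.05, beside 12.1%, 9.55% and 13.1%. These were Cat and Nqo1 in cHF+F versus cHF, Sod1, Sod2 and Hmox1 in cHF+ROSI versus cHF, and Cat and Gclc between the interventions, with a smallest adjusted p of 0.246, 0.437 and 0.347. The exact permutation tests given for single genes leave the slide out of account. Those given for correlations leave out both the diet and the slide. The levels of all 10 genes overlapped between the diets in every comparison, and 0.0689%, 0.0188% and 0.0376% of all probes did not. The 95% confidence intervals bound the differences: against cHF they ran at most from 0.732-fold to 1.14-fold in cHF+F and from 0.785-fold to 1.13-fold in cHF+ROSI, and between the interventions from 0.763-fold to 1.203-fold.

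**Figure D1:**
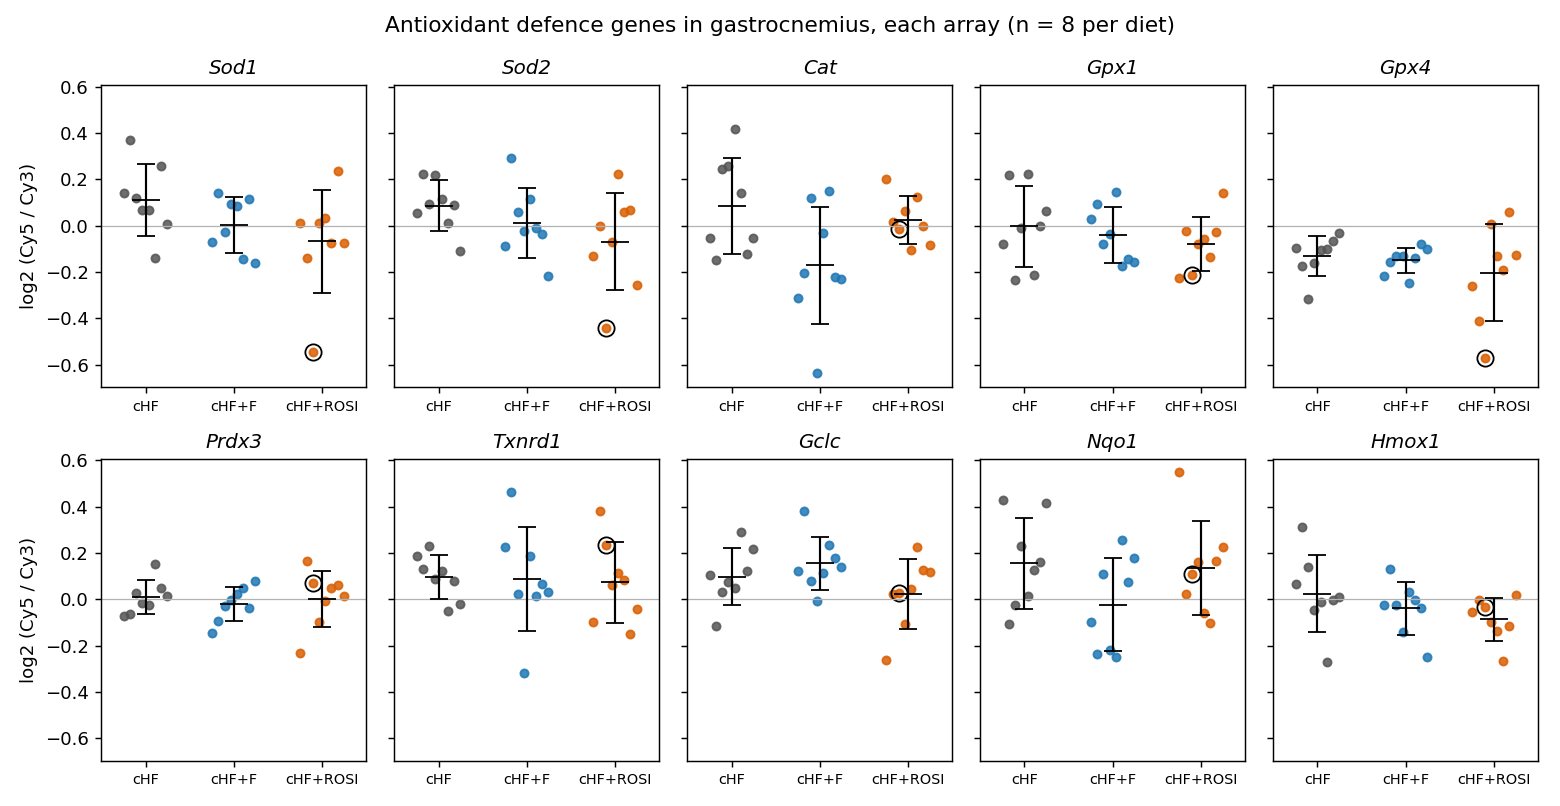
Log2 ratio of Cy5 over Cy3 of the 10 genes on each of the 24 arrays, by diet; points are arrays (1 mouse each), black bars are the mean ± SD of 8 arrays, and an open ring marks array 3 of cHF+ROSI. The 3 diets overlap for all 10 genes, and the ringed array is the lowest of all for Sod1 (-0.54), Sod2 (-0.44) and Gpx4 (-0.57).

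The superoxide dismutases came first in the chain. Sod1, the copper and zinc enzyme of the cytosol, had log2 ratios from -0.14 to 0.37 (median 0.09) in cHF, from -0.16 to 0.14 (median 0.03) in cHF+F and from -0.54 to 0.23 (median -0.03) in cHF+ROSI. The ranges overlapped, and 7 of 8 cHF+ROSI animals lay below the cHF mean of 0.11 ± 0.16 (SD, n = 8). The difference between cHF+ROSI and cHF was -0.18 (SE 0.08, 95% confidence interval -0.35 to -0.01; limma adjusted p = 0.996), or 0.883-fold, and it did not pass the threshold. An exact permutation test of the 8 against 8 animals gave a two-sided p of 0.0758. Without array 3 of cHF+ROSI the difference was -0.11, as it was without arrays 3 and 4, with a narrower loess span of 0.1 it was -0.10, and without slides 1 to 3 it was -0.03, each with an unadjusted limma p over 0.05. On that array Sod1 stood at -0.54 with the span of 0.3 and at 0.08 with the span of 0.1. The unadjusted p was also over 0.05 by the methods' t-test, without background correction (-0.09) and without array 2 of cHF (-0.14), the highest of its group. With the slide as a block the adjusted p was 0.437. Between cHF+F and cHF the difference of Sod1 was -0.11 (limma adjusted p = 0.901), and between cHF+F and cHF+ROSI it was 0.07 (adjusted p = 0.904), with a sign that turned with the span of 0.1 (-0.03).

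Sod2, the manganese enzyme of the mitochondrial matrix, gave a like picture. It ranged from -0.11 to 0.22 (median 0.09) in cHF, from -0.22 to 0.29 (median -0.02) in cHF+F and from -0.44 to 0.22 (median -0.04) in cHF+ROSI. The ranges overlapped, and the lowest value was again array 3 of cHF+ROSI. The difference between cHF+ROSI and cHF was -0.16 (SE 0.08; limma adjusted p = 0.996; exact permutation p = 0.0796), with cHF+ROSI lower on 6 of 8 slides. It was -0.10 without that array, on which Sod2 stood at -0.44 with the span of 0.3 and at 0.05 with the span of 0.1. Under the alternatives other than single arrays left out, the difference ran from -0.19 to -0.06. For cHF+F versus cHF the difference was -0.07 (limma adjusted p = 0.949).

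**Figure D2:**
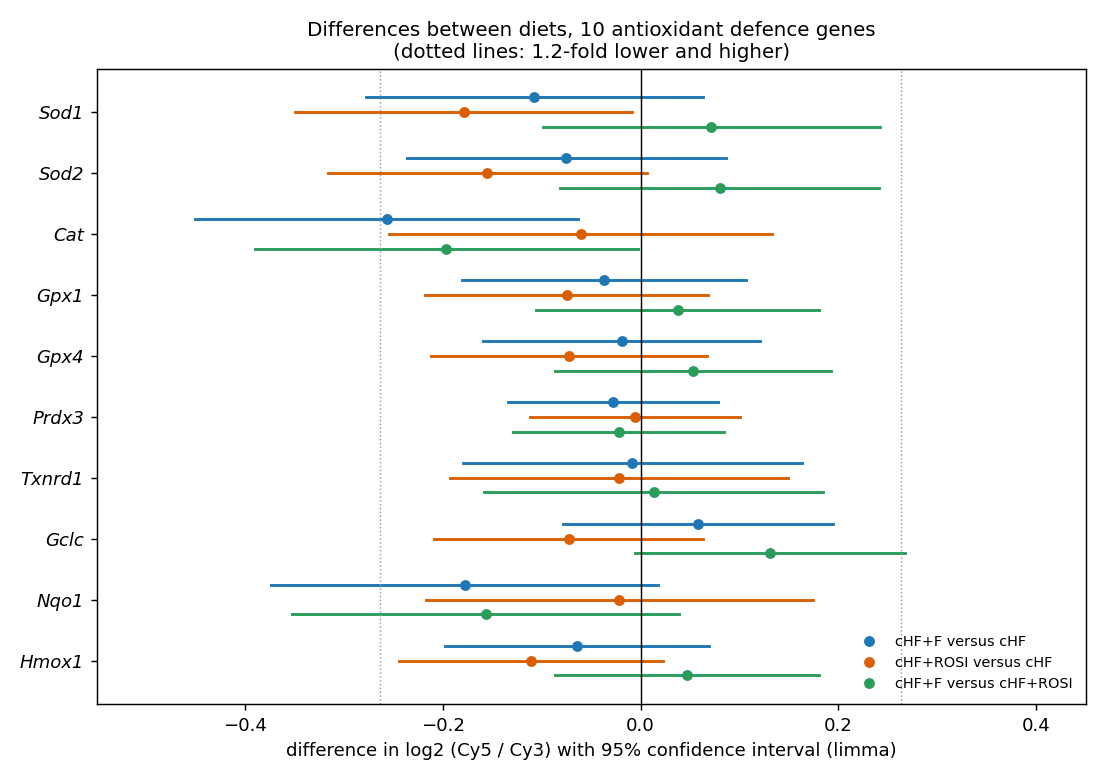
Differences in log2 ratio (points) between the diets for each of the 10 genes, with 95% confidence intervals from limma (bars); dotted lines mark a change of 1.2-fold. Points left of 0 are lower in the diet named first, and the interval leaves 0 for Cat in both comparisons of cHF+F and for Sod1 in cHF+ROSI versus cHF.

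Among the enzymes that remove peroxide, Cat, the peroxisomal catalase, showed the largest difference of the 10 genes in both comparisons of cHF+F. Its log2 ratio ranged from -0.15 to 0.42 (median 0.04) in cHF, from -0.64 to 0.15 (median -0.21) in cHF+F and from -0.11 to 0.20 (median 0.01) in cHF+ROSI. Thus 6 of 8 cHF+F animals lay below the cHF mean, while the ranges overlapped and array 4 of cHF+F was the lowest. The difference between cHF+F and cHF was -0.26 (SE 0.09, 95% confidence interval -0.45 to -0.06; limma adjusted p = 0.558), or 0.837-fold with an interval from 0.732 to 0.957. The exact permutation test gave a two-sided p of 0.0427, and the limma p had rank 325 among the 15958 probes. With the slide as a block the limma adjusted p was 0.246. Within slides cHF+F was lower than cHF on 7 of 8, by differences from -0.90 on slide 4 to 0.01 on slide 6, and without array 4 of cHF+F the difference was -0.19 (limma adjusted p = 0.778). Cat was also lower in cHF+F than in cHF+ROSI by a difference of -0.20 (SE 0.09; limma adjusted p = 0.740; exact permutation p = 0.0550), on 5 of 8 slides. Both comparisons share the cHF+F animals. Between cHF+ROSI and cHF the difference was -0.06 (95% confidence interval -0.25 to 0.13; limma adjusted p = 0.996).

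Markers of macrophages and endothelium, and most of those of slow fibres of the muscle itself, also had lower means in cHF+F than in cHF. All 8 macrophage markers had lower means in cHF+F than in cHF (median difference -0.18, 2 with an unadjusted p under 0.05), all 8 were measured, and the mean of the list ranged from -0.21 to 0.27 in cHF, -0.63 to 0.18 in cHF+F and -0.27 to 0.25 in cHF+ROSI. Of 7 markers of slow fibres 6 were lower in cHF+F (median difference -0.52, 3 with an unadjusted p under 0.05), with means of the list from -0.33 to 0.74, -1.15 to 0.44 and -1.28 to 0.64. The 5 endothelial markers, all measured, were all lower in cHF+F (median difference -0.12, 2 with an unadjusted p under 0.05), and the mean of that list ranged from -0.20 to 0.31, from -0.39 to 0.03 and from -0.22 to 0.07. The widest difference among them was that of Cldn5, a protein of endothelial tight junctions, at -0.65 (limma adjusted p = 0.121), and with the slide as a block it passed the threshold (adjusted p = 0.0146). Over the 24 arrays, Cat and the macrophage mean correlated with a Pearson r of 0.601 (permutation p = 0.00232) and a Spearman rho of 0.461 (permutation p = 0.0254). After adjustment over the 70 relations of the 10 genes with 7 marker lists neither passed (0.0812 and 0.195), and r was 0.341 without the 2 arrays farthest from the median. Within the diets r was 0.665, 0.575 and 0.145, and after removing the means of diets and slides it was 0.641. Cat and the endothelial mean had r = 0.566 (permutation p = 0.00387, adjusted 0.0903) and rho = 0.460 (adjusted 0.195), r was 0.398 without the 2 farthest arrays and 0.628 after removing the means of diets and slides, and within the diets it was 0.552, 0.646 and -0.20. Cat and the slow fibre mean had r = 0.503 (permutation p = 0.0130, adjusted 0.162) and rho = 0.577 (adjusted 0.103). That r was 0.543 without the 2 farthest arrays and 0.233 after removing the means of diets and slides. Within the diets it was 0.630, 0.334 and 0.546. With the mean of the blood markers the relation of Cat was negative, with r = -0.515 (permutation p = 0.0111, adjusted 0.162) and rho = -0.338 (adjusted 0.393). That r was -0.217 without the 2 farthest arrays and -0.666 after removing the means of diets and slides. The part of these cells and fibres in the levels of Cat was not tested.

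Gpx1, the glutathione peroxidase of cytosol and mitochondria, ranged from -0.24 to 0.22 in cHF, from -0.17 to 0.15 in cHF+F and from -0.23 to 0.14 in cHF+ROSI. The 3 ranges nearly coincided. Its differences from cHF were -0.04 in cHF+F and -0.07 in cHF+ROSI, and cHF+F differed from cHF+ROSI by 0.04, each with an SE of 0.07 and a limma adjusted p of 0.946 or higher. Gpx4, which reduces lipid hydroperoxides in membranes, ranged from -0.32 to -0.03 in cHF, from -0.25 to -0.08 in cHF+F and from -0.57 to 0.06 in cHF+ROSI. The last group was the most spread, with an SD of 0.21 against 0.09 in cHF and 0.06 in cHF+F, and its lowest value, array 3, was at -0.57 with the span of 0.3 and at -0.05 with that of 0.1. The differences of Gpx4 were -0.02, -0.07 and 0.05 in the same order (limma adjusted p of 0.919 or higher). Under the alternatives other than single arrays left out, that of cHF+ROSI versus cHF ran from -0.20 to 0.02. Prdx3, the mitochondrial peroxiredoxin, had the narrowest spread of the 10 genes, from -0.07 to 0.15 in cHF, from -0.14 to 0.08 in cHF+F and from -0.23 to 0.17 in cHF+ROSI. Its interval for cHF+ROSI versus cHF was 0.925-fold to 1.07-fold (limma adjusted p = 0.998).

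Of the genes that supply reducing power, Txnrd1, the cytosolic thioredoxin reductase, ranged from -0.05 to 0.23 in cHF, from -0.32 to 0.46 in cHF+F and from -0.15 to 0.38 in cHF+ROSI. Its means of 0.10, 0.09 and 0.07 lay closer together than those of any other of the 10 genes, and its differences were -0.01, -0.02 and 0.01 (limma adjusted p of 0.984 or higher). Both its lowest and its highest value were in cHF+F, on arrays 4 and 2. Gclc, the catalytic subunit of the rate-limiting enzyme of glutathione synthesis, ranged from -0.12 to 0.29 (median 0.09) in cHF, from -0.01 to 0.38 (median 0.13) in cHF+F and from -0.26 to 0.22 (median 0.04) in cHF+ROSI. It was the only member with a higher mean in cHF+F than in cHF, by 0.06 (SE 0.07; limma adjusted p = 0.954), and that sign turned with the processed signals of the scanner software (-0.08) and without slides 1 to 3 (-0.02). Gclc was higher in cHF+F than in cHF+ROSI on 8 of 8 slides, by 0.01 to 0.39, with a mean difference of 0.13 (SE 0.07, 95% confidence interval -0.01 to 0.27; limma adjusted p = 0.759; exact permutation p = 0.0699). With the slide as a block the adjusted p was 0.347. The largest of these differences were those of slides 1 and 2, and without slides 1 to 3 the mean difference was 0.05. Gclc was well above background on all 24 arrays in Cy5 but on 23 in Cy3.

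Nqo1 and Hmox1 are textbook targets of NRF2. Nqo1, a quinone reductase, ranged from -0.11 to 0.43 (median 0.14) in cHF, from -0.25 to 0.26 (median -0.01) in cHF+F and from -0.10 to 0.55 (median 0.14) in cHF+ROSI. The cHF+F animals lay lower, 6 of 8 below the cHF mean, but the ranges overlapped. The difference of cHF+F from cHF was -0.18 (SE 0.10; limma adjusted p = 0.785; exact permutation p = 0.0963) and that from cHF+ROSI was -0.16 (exact permutation p = 0.144), with cHF+F lower on 6 and on 7 of 8 slides. With the slide as a block the first had an adjusted p of 0.352. In the Cy5 signal alone the first difference had the opposite sign, 0.11, and on 1 array, replicate 3 of cHF, Nqo1 was not well above background in either channel. Hmox1, the inducible haem oxygenase, ranged from -0.27 to 0.31 (median 0.00) in cHF, from -0.25 to 0.13 (median -0.02) in cHF+F and from -0.27 to 0.02 (median -0.08) in cHF+ROSI. All 8 cHF+ROSI animals were below the cHF mean of 0.02, yet they overlapped with the cHF range. The difference was -0.11 (SE 0.07; limma adjusted p = 0.996; exact permutation p = 0.123), and -0.06 (adjusted p = 0.943) for cHF+F versus cHF. Without array 2 of cHF, the highest of its group at 0.31, the difference of cHF+ROSI from cHF was -0.07.

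**Figure D3:**
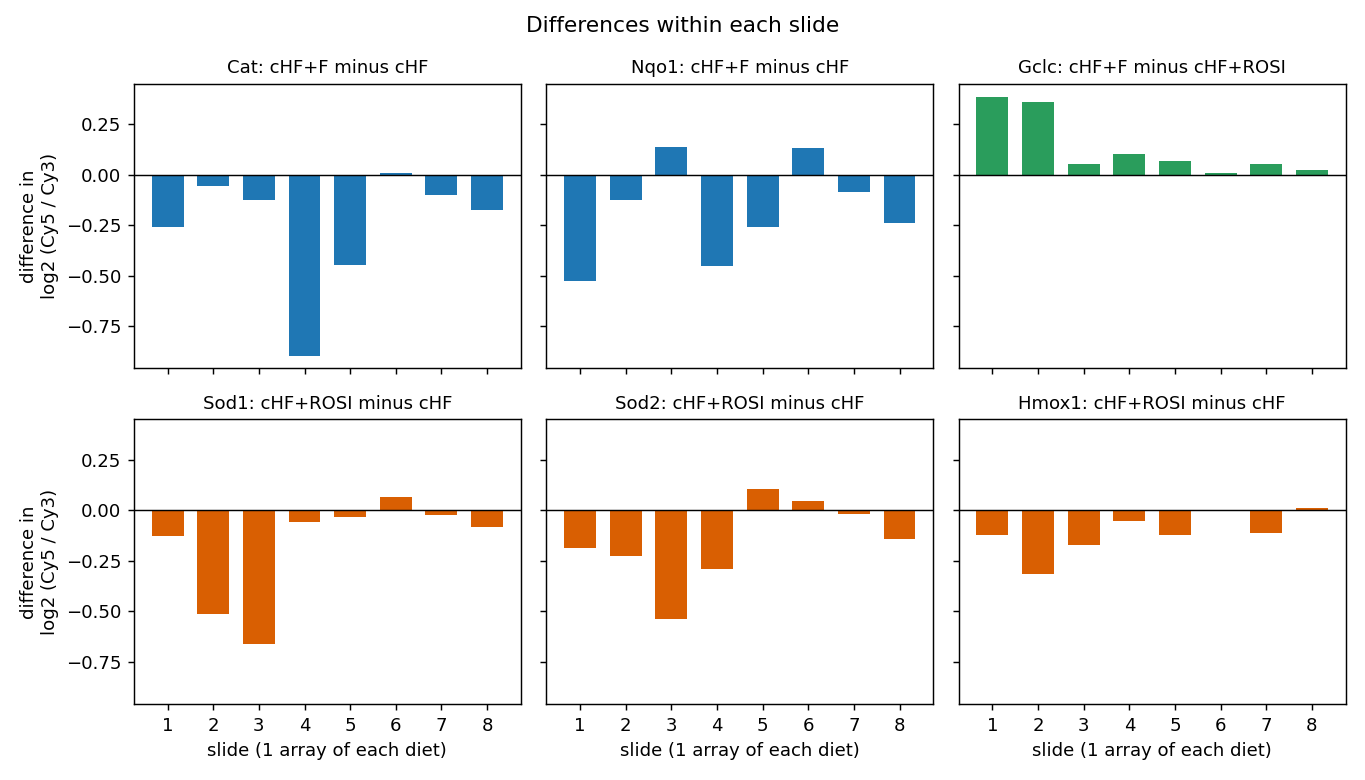
Difference in log2 ratio within each of the 8 slides, each of which held 1 array per diet; a bar is 1 animal minus another on the same slide. Cat is lower in cHF+F on 7 of 8 slides with its largest difference on slide 4 (-0.90), Gclc is higher in cHF+F than in cHF+ROSI on all 8, and the largest differences in cHF+ROSI are on slide 3 for Sod1 and Sod2 and on slide 2 for Hmox1.

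As a group, 9 of the 10 genes had lower means in cHF+F than in cHF and all 10 in cHF+ROSI, beside 49.6% and 54.7% of all probes, and both comparisons share the cHF animals. The genes had been chosen with earlier results of these data known, so these counts describe the set and test nothing. The median difference was -0.05 and -0.07, against 0.00 and -0.01 over all 15958 probes. Between cHF+F and cHF+ROSI 3 of 10 were lower (45.8% of all probes) with a median of 0.04. Without array correction for signal strength (median centring) the numbers of lower members were 9, 9 and 8, with medians of -0.14, -0.07 and -0.08, while the medians of all probes were -0.01, -0.03 and 0.02. With the narrower span they were 9, 10 and 6, and without arrays 3 and 4 of cHF+ROSI 9, 10 and 3. Hence the sign between cHF+F and cHF+ROSI depended on the normalization, whereas 8 to 10 members were lower than in cHF in the other comparisons under each setting tried on the set of members, those with single arrays left out aside.

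Marker lists also moved in cHF+ROSI versus cHF, the comparison in which all 10 genes had lower means. All 5 endothelial markers were lower (median difference -0.17, 3 with an unadjusted p under 0.05), with Cldn5 at -0.42, Kdr at -0.23 and Tek at -0.17 (limma adjusted p = 0.996 each). All 5 markers of skeletal muscle were lower too, by -0.28 to -0.07, none with an unadjusted p under 0.05, and the mean of that list ranged from -0.50 to 0.68 in cHF, from -0.08 to 0.56 in cHF+F and from -0.82 to 0.46 in cHF+ROSI. Their probes had a mean Cy5 signal of 2803 to 6069 times the background, above that of each member. On array 3 of cHF+ROSI the median of the brightest 2% of probes was -0.45, against -0.01 with the span of 0.1. This list was not read with that span, and the part of the normalization in its lower means was not tested. For blood, 2 of 3 markers were bright enough and both were lower (median difference -0.40), with Hba-a1, a haemoglobin chain, at -0.49 (limma adjusted p = 0.996) and 0 of 8 cHF+ROSI animals above its cHF mean. The mean of the blood markers ranged from -0.41 to 0.96, from -0.67 to 1.15 and from -0.63 to -0.04. In the same comparison 5 of 7 slow fibre markers were lower (median difference -0.24) and 7 of 8 macrophage markers (median difference -0.04). None of either list had an unadjusted limma p under 0.05. No marker was called by limma at an adjusted p under 0.05 in this comparison, and the part of these cells and fibres in the levels of the 10 genes was not tested.

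The reference channel shows how far a single channel differed between the array groups, since the same pool was on every array. In Cy3 alone 0 members differed at an adjusted p under 0.05 (limma), and the differences between the array groups ranged from -0.28 to 0.31. The like range was -0.44 to 0.34 in Cy5 alone and -0.26 to 0.13 for the log2 ratios. A ratio takes out what both channels of a spot share, so the range in Cy3 does not measure the spread of the ratios. In Cy3 alone 1 member had an unadjusted limma p under 0.05, Sod2 in cHF+ROSI versus cHF (-0.11, adjusted p = 0.760). With the slide as a block there were 4 in that comparison, Gpx1, Gpx4, Sod2 and Hmox1, with limma adjusted p from 0.219 to 0.230. In Cy5 alone 0 members passed at an unadjusted p under 0.05, and the smallest was that of Hmox1 in cHF+ROSI versus cHF (-0.44, adjusted p = 0.798).

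Over the 24 arrays the range of a gene went from 0.40 for Prdx3 to 1.06 for Cat. Sod1 and Sod2 varied together across the animals. Over the 24 arrays their Pearson r was 0.728 (permutation p = 0.00011) and their Spearman rho 0.650 (permutation p = 0.00077), the only one of the 45 pairs of members with an adjusted p under 0.05 on both measures (0.00495 and 0.0347). These permutations shuffle all 24 arrays and leave the diet and the slide out of account. Within cHF, cHF+F and cHF+ROSI r was 0.571, 0.683 and 0.735. Without the 2 arrays farthest from the median of Sod1 it was 0.5004, without array 3 of cHF+ROSI it was 0.565, with the span of 0.1 it was 0.645, and after removing the means of diets and slides it was 0.750. Both probes are among the brightest of the 10, at 802 and 753 times the background in Cy5, and the part of signal strength in this relation was not tested. Among the marker lists, Gpx4 had an r of 0.699 with the mean of the 5 skeletal muscle markers (adjusted permutation p = 0.0427), which was 0.383 without the 2 farthest arrays and did not pass on rho (0.571, adjusted p = 0.103).

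**Figure D4:**
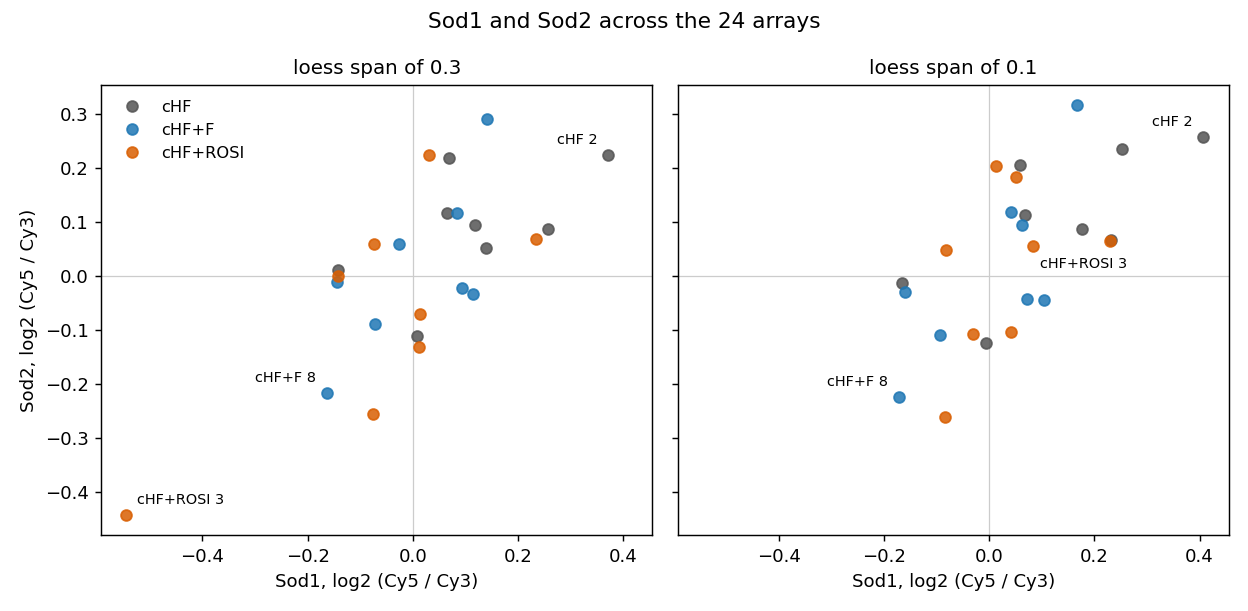
Log2 ratio of Sod2 against that of Sod1 on each of the 24 arrays, coloured by diet, with a loess span of 0.3 on the left and of 0.1 on the right. Array 3 of cHF+ROSI lies at -0.54 and -0.44 on the left and at 0.08 and 0.05 on the right, and r is 0.728 and 0.645.

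The genes whose log2 ratios were most like those of each member over the arrays were listed as a description, without a test. They were Eef1d (r = 0.863), Cisd1 (0.841) and Nudc (0.840) for Sod1, and Atp5h (0.864, over 23 arrays), Cycs (0.845) and Dnajc15 (0.837) for Sod2. The closest to Cat were Acss1 (0.807), Tspan2 (0.768) and Mgll (0.765). Gpx4 was closest to the genes of the ribosomal proteins Rps25 (0.887), Rpl35 (0.865) and Rps16 (0.859), and Gpx1 to Htra1 (0.719), Cbr2 (0.712) and Mrps33 (0.710). For Prdx3 they were Plec (0.824), Zfp644 (0.814) and Slc30a9 (0.813, over 23 arrays), and for Txnrd1 Myorg (0.807), Rab11fip3 (0.785) and Sbno2 (0.764). Gclc was closest to Bmp2k (0.746), Brd8 (0.723) and Zfp930 (0.697), Nqo1 to Pink1 (0.829), Hsf4 (0.825) and Pip5k1a (0.819), and Hmox1 to Tep1 (0.765), Agt (0.747) and Cotl1 (0.742). The arrays share slides and the reference pool, and each trio is the top of all genes tested. These r values rest on the span of 0.3 alone, which left bright probes off 0 on arrays 2 and 3 of cHF+ROSI. Between members, r of Gpx4 with Sod1 was 0.572 with that span and 0.186 with the span of 0.1, while that of Sod1 with Sod2 was 0.728 and 0.645. The part of the normalization in the listed likenesses was not tested.

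A further 80 genes of antioxidant defence were followed as lists by role, of which 69 were bright enough. Among those not bright enough were Sod3, Gclm, Slc7a11 and Nox4. By limma 0 of the 69 were called in each comparison, and 2, 1 and 1 had an unadjusted p under 0.05. Their median differences were -0.02, 0.00 and -0.03, with 40, 35 and 39 of the 69 lower. The median was thus nearer to 0 than that of the 10 members in the comparisons with cHF.

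Glrx3, a cytosolic monothiol glutaredoxin with a part in iron handling (chr7:137306285-137306344), ranged from -0.17 to 0.14 (median 0.05) in cHF and from 0.08 to 0.20 (median 0.14) in cHF+F. All 8 cHF+F animals were above the cHF mean, although the ranges overlapped, and the difference was 0.12 (SE 0.05; limma adjusted p = 0.641). Nfe2l1, which encodes NRF1, a transcription factor related to NRF2 that raises proteasome genes (chr11:96633559-96633618), ranged from -0.27 to 0.17 in cHF, from -0.56 to 0.02 in cHF+F and from -0.75 to 0.06 in cHF+ROSI. In both interventions 7 of 8 animals lay below the cHF mean, with differences of -0.19 (limma adjusted p = 0.719) and -0.22 (adjusted p = 0.996) that share the cHF animals. Oxr1, a gene known to protect against oxidative damage (chr15:41690625-41690684), ranged from 0.22 to 0.50 in cHF+F and from -0.01 to 0.36 in cHF+ROSI. The difference was 0.17 (SE 0.07; limma adjusted p = 0.661), and 0.185 was its adjusted p with the slide as a block.

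By role, the largest lists were the glutathione transferases (9 of 9 genes measured), the thioredoxins and glutaredoxins (9 of 9), and 3 lists of 7 measured genes each. Of the glutathione transferases 6 were lower and 3 higher in cHF+F than in cHF (median -0.04), and 4 and 5 in cHF+ROSI (median 0.05). The regulators of the NRF2 pathway had 6 of 7 lower in cHF+F (median -0.11) but 3 of 7 in cHF+ROSI (median 0.01). In the list of metallothioneins and other protective genes 6 of 7 were higher in cHF+F (median 0.06) and 2 of 7 in cHF+ROSI (median -0.05). The widest differences in that list were those of Mt1 and Mt2, metallothioneins that bind zinc and copper, which are named after their values were seen. Between cHF+F and cHF+ROSI they were 0.47 (SE 0.23; limma adjusted p = 0.750) and 0.45 (SE 0.36; adjusted p = 0.862), with 6 of 8 cHF+F animals above the cHF+ROSI mean for each. Mt1 ranged from -0.92 to 0.88 in cHF, from -0.75 to 0.97 in cHF+F and from -0.91 to -0.19 in cHF+ROSI, so the groups overlapped, and with the slide as a block its adjusted p was 0.192. None of the lists held a called gene, and whether the lists differ from each other was not tested.

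**Figure D5:**
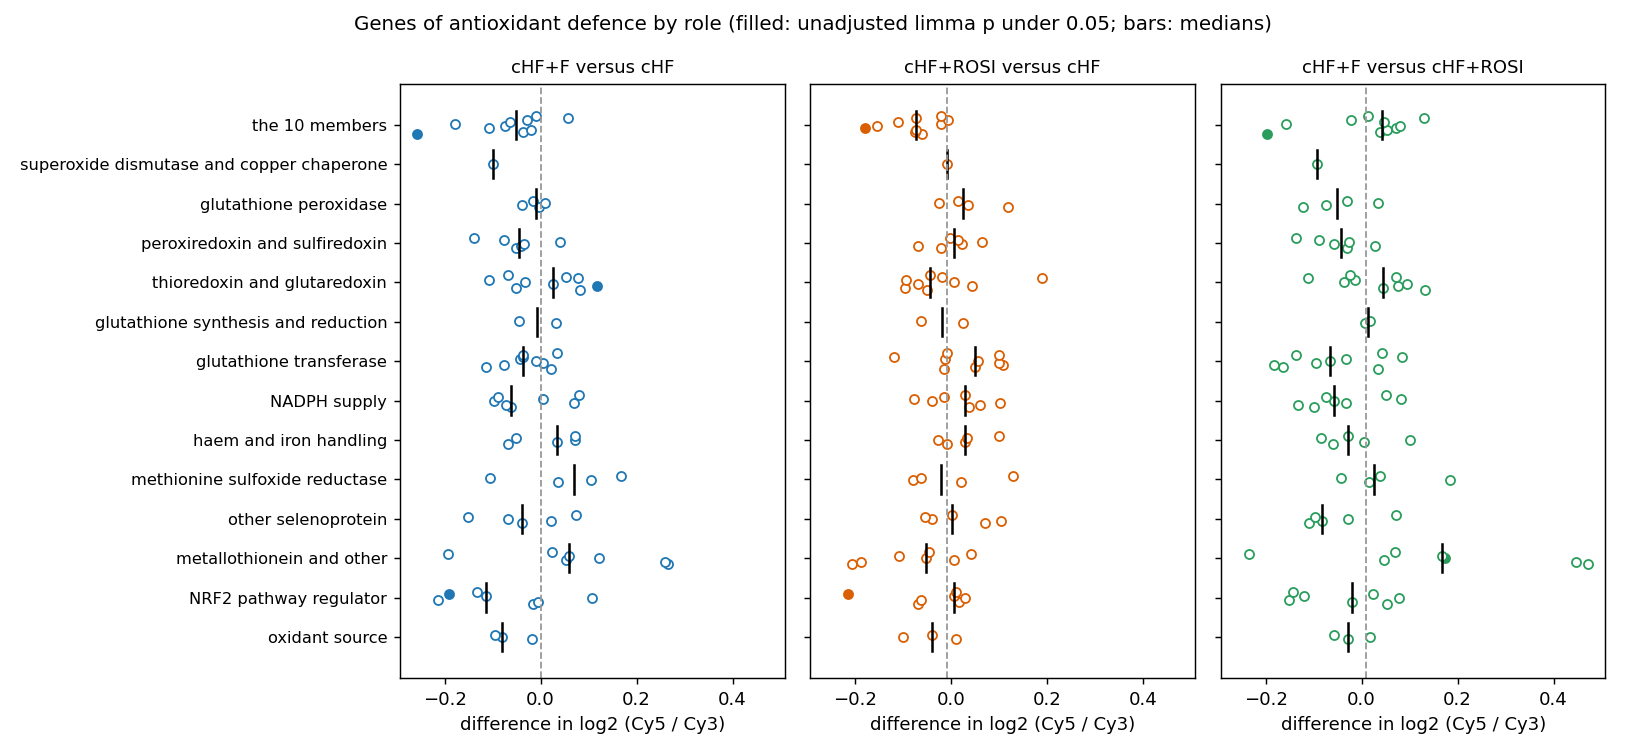
Difference in log2 ratio of each measured gene of antioxidant defence by role, for the 3 comparisons; each circle is a gene, filled circles have an unadjusted limma p under 0.05, black bars are medians of a list and dashed lines the median of all 15958 probes. Most lists have genes on both sides of 0, and the circles farthest from 0 are Mt1 and Mt2 in cHF+F versus cHF+ROSI (0.47 and 0.45).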

How the data were processed

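Gastrocnemius RNA of 24 mice was measured on 24 two-colour arrays, 8 per diet, and groups and replicate numbers were taken from the labels. The deposited scanner files hold, per the file headers, spot and background intensity values of each channel, quantified by the authors with Feature Extraction 10.5.1.1 (the labels list 10.5.5.1). The authors also deposited a table of log2 values, normalized to a median of 8.97 to 9.00 per column, of which 16 columns of cHF and cHF+F served as an alternative. The other 8 columns are named for a combined diet that is not in this series and were not used.

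Median spot signals were corrected by normexp (offset 50) and normalized by loess within arrays (span 0.3), and log2 ratios of replicate spots were averaged. Of 41174 probes, 15958 had at least 4 unflagged arrays per group and a mean signal of at least 2 times the background in both channels. Groups were compared with limma 3.58.1 (R 4.3.3, with the package data.table in version 1.17.8) in a model of the 3 diets without a block, Benjamini-Hochberg adjusted over all probes and called at an adjusted p under 0.05. For each gene the brightest kept probe was used. All members were named, of the other antioxidant genes those with an unadjusted p under 0.05, and the 3 genes most correlated with each member. The members and all lists were chosen with earlier results of these data known. Markers of skeletal muscle, slow fibres, macrophages, adipocytes, liver, blood and endothelium were averaged per array as lists. Permutation p-values of correlations rest on 100000 resamples, and those of single genes are exact and two-sided. The limma step was tested on simulated data. Promoters were searched and figures drawn with Python 3.11.15 and matplotlib 3.10.9. The number of arrays limits the precision.

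Same-numbered arrays shared a slide. Of 24 pairs on a slide, 18 deviated together from their group means with r over 0.1 (range -0.11 to 0.64), so not every pair did. The main model stayed without a block, and since a slide is a shared batch the values with the slide as a block are given beside the results. Others were the background correction, the span, median centring, the processed signals, each channel alone, the filter, array weights, the methods' t-test, averaging probes, the table of the authors, each array left out, and 2 subsets of arrays chosen after seeing the data.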

Additional observations from a re-analysis of the deposited data

How the results depend on the processing

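The number of called members and of other called antioxidant genes was 0 in each comparison under every alternative, including each array left out. Of 400 differences of single members under the other alternatives, 361 kept their sign and 39 did not, and 0 passed the adjusted threshold. With 1 array left out, 698 of 720 kept their sign. Part of both counts was fixed in advance. The changes of filter, the slide as a block, the methods' t-test and averaging probes left the members' estimates as they were. Leaving out an array of a diet also left the comparison of the other diets as it was. The differences of Cat, Gpx1, Gpx4, Hmox1, Sod1 and Sod2 in cHF+F, of Sod1, Sod2, Gpx1, Hmox1 and Gclc in cHF+ROSI, each from cHF, and of Cat, Nqo1, Hmox1 and Gclc between cHF+F and cHF+ROSI kept their sign throughout. The cause of the turned signs was not tested.

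For cHF+F versus cHF, the sign turned with the processed signals for Prdx3 (0.0033) and Gclc (-0.078), in Cy5 alone for Nqo1 (0.11), without slides 1 to 3 for Gclc (-0.020) and in the authors' table for Txnrd1 (0.019). For cHF+ROSI versus cHF it turned without background correction for Gpx4 (0.00097), with median centring for Nqo1 (0.097), with the processed signals for Nqo1 (0.020) and Prdx3 (0.0026), in Cy5 alone for Cat (0.035) and Nqo1 (0.34), with array weights for Prdx3 (0.020) and Txnrd1 (0.048), and without slides 1 to 3 for Gpx4 (0.016).

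For cHF+F versus cHF+ROSI it turned without background correction for Gpx4 (-0.043), Sod1 (-0.044), Sod2 (-0.018) and Prdx3 (0.0020). With the span of 0.1 it turned for Gpx4 (-0.023), Sod1 (-0.025) and Sod2 (-2.6e-05), and with median centring for Gpx1 (-0.062), Gpx4 (-0.094), Sod1 (-0.093), Sod2 (-0.067) and Txnrd1 (-0.053). With the processed signals it turned for Gpx4 (-0.031), Sod1 (-0.0084), Sod2 (-0.020) and Prdx3 (0.00070), in Cy5 alone for Prdx3 (0.037), and with array weights for Gpx1 (-0.012) and Txnrd1 (-0.074). Without slides 1 to 3 it turned for Gpx1 (-0.041), Gpx4 (-0.063), Sod1 (-0.029), Sod2 (-0.038), Prdx3 (0.020) and Txnrd1 (-0.018).

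With single arrays left out, signs turned for Txnrd1 in cHF+F versus cHF (-0.062 to 0.049), for Nqo1 (-0.080 to 0.018), Prdx3 (-0.029 to 0.028) and Txnrd1 (-0.066 to 0.010) in cHF+ROSI versus cHF, and for Prdx3 (-0.056 to 0.0015) and Txnrd1 (-0.041 to 0.071) in cHF+F versus cHF+ROSI. The replicate block left the number of called members at 0, with 2, 3 and 2 of them at an unadjusted p under 0.05, and 16 of the 24 arrays correlated best with an array of their own slide. Over all probes it called 6 in cHF+F versus cHF, array weights called 13 and no filter 3, against 0, none of them a member or another antioxidant gene, while the 6 include Cldn5, an endothelial marker (adjusted p = 0.0146 with the block).

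The alternatives without slides 1 to 3 and without arrays 3 and 4 of cHF+ROSI were chosen after seeing the data. Limits are the dim spots of slides 1 to 3, the normalization of the brightest spots on arrays 2 and 3 of cHF+ROSI, and the spread between animals: the 95% confidence intervals of 3, 2 and 2 members reached a level 1.2-fold lower, and those of 0, 0 and 1 a level 1.2-fold higher. Of 30 sets of 8 values, 1 per member and diet, 0 held a value apart from the rest by Dixon's 95% criterion.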

Other observations

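Marker lists not set beside a member above moved as follows. The 5 of 7 liver markers that were bright enough (Ttr was not, and Serpina1a had no probe) were all higher in cHF+F and in cHF+ROSI than in cHF, with median log2 differences of 0.40 and 0.63, and the mean of the list on an array ranged from -1.92 to -0.37 in cHF, from -1.51 to 0.69 in cHF+F and from -2.02 to 1.31 in cHF+ROSI. The 7 adipocyte markers had median differences of -0.09 and 0.01, and the mean of that list ranged from -0.98 to 0.70, from -1.31 to 1.02 and from -0.87 to 0.33. None of these genes was called by limma at an adjusted p under 0.05, and their part in the levels of the antioxidant genes was not tested.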
